A study of Mus musculus with 12 samples.

Results

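The E2F transcription factors and the retinoblastoma family of pocket proteins that restrain them were followed through mutant blood stem and progenitor cells. The genes described are E2f1, E2f2, E2f3, E2f4, E2f6, E2f7, E2f8, Rb1, Rbl1 and Rbl2, picked by symbol with earlier results of these data known. They are 10 of the 55471 genes in the deposited count table. RNA was sequenced from LSK cells, named for lacking lineage markers and carrying Sca1 and Kit, a fraction that holds blood stem cells and early progenitors, taken from primary transplanted mice 6 weeks after tamoxifen. There were 6 groups of 2 libraries. WT was taken as the control of Hoxa9_KO (the homeobox factor Hoxa9), Bcat_KO (β-catenin, gene Ctnnb1) and dKO (β-catenin and Hoxa9 together). WT_Prmt1 was taken as the control of Prmt1_KO (the arginine methyltransferase Prmt1). Each control with its mutants is called an experiment below, which names the comparison and not a known batch. The sample titles call the mutants KO, while the genotype field calls the same samples knockdown. All groups share the transplantation, and the design text sets all of them at the same time after tamoxifen. The alleles, the Cre driver, the age of the mice, any remaining host cells and whether each library of a pair is from its own animal were not given in the sources used here. P-values may thus measure technical spread only.

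E2F factors bind DNA at the promoters of genes for DNA replication and cell division, in most cases as dimers with a Dp partner. Pocket proteins bind E2F factors and silence these promoters until cyclin-dependent kinases phosphorylate the pocket protein and free the factor. In blood-forming stem cells the family is known as a control point between quiescence and entry into the cell cycle, and loss of pocket proteins is known to expand cycling progenitors.

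Library depth ranged from 17569709 to 40553891 counts, and all 10 genes passed the filter on low counts. The targeted genes were lower under their labels: Hoxa9 was at 8.36 to 12.2 CPM (the count as a share of the library, scaled by TMM) in the Hoxa9_KO and dKO libraries and at 41.1 to 61.9 elsewhere. Ctnnb1 was at 227 to 276 CPM in Bcat_KO and dKO and at 315 to 384 elsewhere, and Prmt1 was at 112 to 118 CPM in Prmt1_KO and at 255 to 334 elsewhere. The sorting markers Kit and Ly6a (Sca1) were present in every library, at 139 to 461 and 73.7 to 298 CPM. The Y-linked gene Ddx3y was at 60.6 to 93.5 CPM in the knockout libraries and at 0.792 to 2.87 in WT and WT_Prmt1. In every comparison of a knockout with its wild type the genotype and the sex of the cells thus cannot be told apart. The same holds for the departure of dKO from the sum of the single changes. Ddx3y there had a log2 value of -4.60 ± 0.31 (edgeR adjusted p = 2.97e-05). The sex-linked gene Xist was at 163 to 202 CPM in the wild-type libraries. It was at 11.2 and 21.9 CPM in Bcat_KO and at 0 to 0.758 in the other knockout libraries. Xist in dKO against Bcat_KO was -4.99 ± 0.48 (8.39e-05). The source of the Xist reads in Bcat_KO was not tested. Markers of other cells moved with the groups too. Summed over 10 B cell markers, the WT libraries held 829 to 1007 CPM, against 219 to 446 in Hoxa9_KO, 84.8 to 85.8 in Bcat_KO, 77.3 to 169 in dKO, 1124 to 1165 in WT_Prmt1 and 128 to 130 in Prmt1_KO. All 10 were detected in each group. Summed over 14 long-term stem cell markers, levels were 607 to 663 CPM in WT, 1095 to 1394 in Hoxa9_KO, 721 to 758 in Bcat_KO, 1439 to 1937 in dKO, 328 to 334 in WT_Prmt1 and 603 to 612 in Prmt1_KO. All 14 were detected in each group. Megakaryocyte markers (10 genes) summed to 257 to 273 CPM in WT, 532 to 685 in Hoxa9_KO, 324 to 352 in Bcat_KO, 702 to 984 in dKO, 162 to 166 in WT_Prmt1 and 880 to 931 in Prmt1_KO, with Gp1bb at 0 in WT, Bcat_KO and WT_Prmt1 and Gp6 at 0 in Bcat_KO. Multipotent progenitor markers (7 genes, all detected) summed to 1777 to 2037, 918 to 991, 2320 to 2366, 566 to 1039, 1938 to 2072 and 3625 to 3732 CPM in the same order of groups. Granulocyte and monocyte markers (13 genes) summed to 668 to 1920, 228 to 1406, 687 to 697, 1708 to 2655, 990 to 1058 and 3826 to 4292 CPM, with Ltf, Retnlg, Mmp9 and Ly6g at 0 in Bcat_KO. Stroma and endothelium markers (10 genes) summed to 103 to 138 CPM in the first 4 groups, 435 to 728 in WT_Prmt1 and 171 to 175 in Prmt1_KO, with Lepr at 0 in Bcat_KO. The part of these differences in the results below was not tested, and in bulk RNA a change in the share of cells of one kind and a change in RNA per cell cannot be told apart.

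Promoter sequence introduces the family because several of its own genes carry the letters its products bind. RefSeq promoter windows on GRCm38.p6, which run from 250 bases before to 50 bases after a start site, were at hand for 8 of the 10 genes, in 10 windows. The 4 E2F words searched on both strands were TTTCCCGC, TTTCGCGC, TTTGCCGC and TTTGGCGC. They occurred in 744 of 32851 windows of all genes (2.26%) and in 4 of the 10 windows of the family, those of Rbl1, E2f3, E2f2 and E2f7. A match describes letters and is not evidence of a bound site, and no match says only that these letters are not in the window. The 120 bases before the start sites of Rbl1 and E2f3, both higher in Bcat_KO, and of Rbl2, higher in dKO and Prmt1_KO, follow with E2F words in capitals.
Rbl1: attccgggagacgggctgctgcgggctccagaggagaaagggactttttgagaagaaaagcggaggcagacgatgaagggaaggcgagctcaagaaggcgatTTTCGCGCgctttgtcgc
E2f3: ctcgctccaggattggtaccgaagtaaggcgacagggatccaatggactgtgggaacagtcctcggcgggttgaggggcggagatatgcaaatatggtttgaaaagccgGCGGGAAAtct
Rbl2: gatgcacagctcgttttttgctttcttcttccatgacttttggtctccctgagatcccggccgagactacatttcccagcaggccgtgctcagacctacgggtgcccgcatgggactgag
The Rbl1 stretch is chr2:157204535-157204654 on the minus strand, and its word begins 18 bases before the start. The E2f3 stretch is chr13:29986064-29986183 on the minus strand, with the word on the opposite strand 11 bases before the start. The Rbl2 stretch, chr8:91069937-91070056 on the plus strand, holds none of the 4 words.
The words of E2f2 and E2f7 lie elsewhere in their windows and are shown in 30 bases each, since E2f2 was the family gene lower in all 4 knockouts and E2f7 is described with E2f1 below.
E2f2: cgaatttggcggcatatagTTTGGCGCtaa
E2f7: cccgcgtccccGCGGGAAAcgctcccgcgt
The E2f2 stretch is chr4:136172294-136172323 on the plus strand. Its word begins at base 40 counted from the RefSeq start, which is upstream of the gene start used in the count table. The E2f7 stretch is chr10:110745230-110745259 on the plus strand, and its word begins 198 bases before the start and reads on the opposite strand.

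Compared per length, as RPKM (CPM per kilobase of the gene's exons), E2f4 was the most abundant member in every group and E2f1 came next. E2f4, mainly a repressor that pocket proteins carry to promoters in resting cells, stood at 37.5 ± 2.79 to 44.5 ± 1.42 RPKM (SD, n = 2) over the 6 groups. E2f1, the best known activator, stood at 19.0 ± 1.51 RPKM in WT and was lowest in Prmt1_KO (13.5 ± 0.334). At the other end E2f7 (1.47 ± 0.119 RPKM in WT) and E2f3 (2.80 ± 0.417 in WT) were the 2 lowest in 5 groups, and in Bcat_KO Rb1 (4.87 ± 1.18) came below E2f3 (5.14 ± 0.0226), with ranges that overlapped.
In WT, E2f2 followed at 15.4 ± 2.26 RPKM without overlapping E2f1, then Rbl1 (10.1 ± 0.510) and E2f6 (10.1 ± 0.361), whose ranges overlapped, and then E2f8 (7.84 ± 0.621), Rb1 (7.46 ± 0.165) and Rbl2 (7.11 ± 0.249). The WT ranges of E2f8 and Rb1 overlapped, and those of Rb1 (lowest 7.34 RPKM) and Rbl2 (highest 7.29) nearly met.
The order changed for Rbl2, which was the eighth of the 10 genes in WT and the third in Hoxa9_KO, dKO and Prmt1_KO. It also changed for E2f2, the third in WT and WT_Prmt1 and the eighth in dKO. With the longest annotated transcript in place of the full exon length, E2f4 stayed first in every group and E2f1 was the second in all groups but Prmt1_KO, where it was the third. From the lowest to the highest group mean, E2f2 varied 3.93-fold and E2f4 1.19-fold, and the other 8 genes lay between these.

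**Figure D1:**
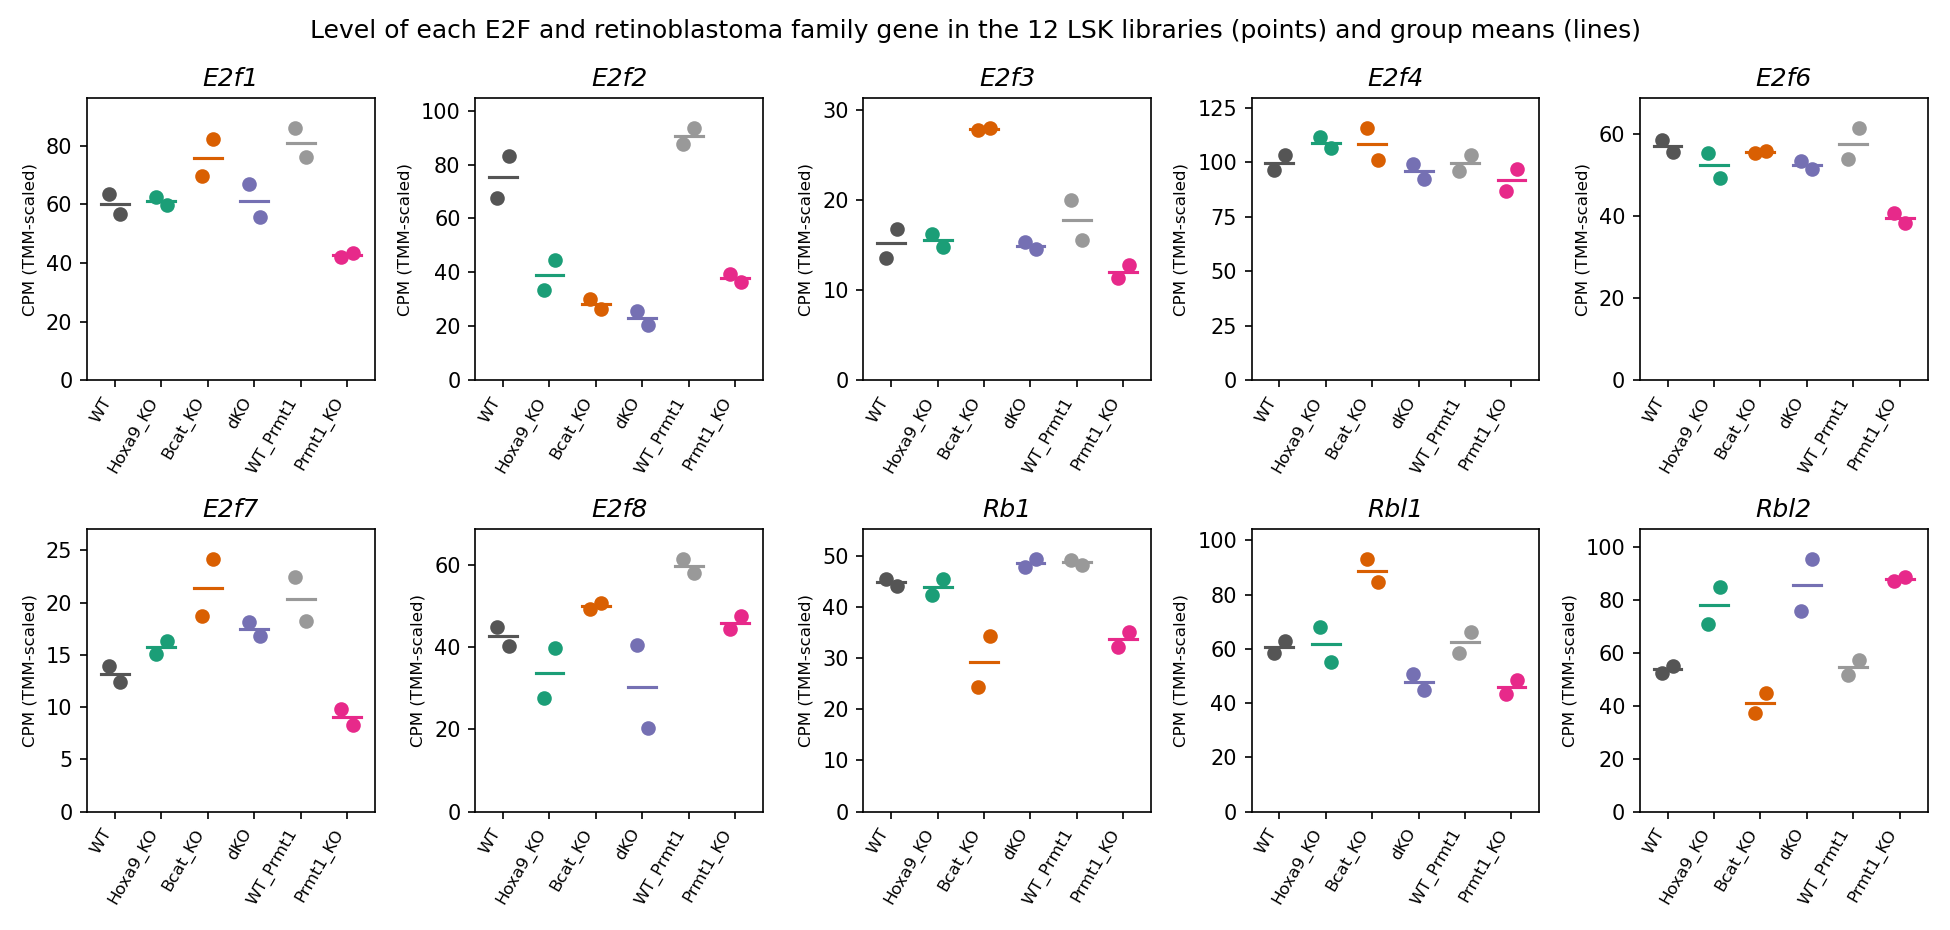
CPM (y axis, from 0, TMM-scaled) of each of the 10 genes in the 12 libraries (points) of the 6 groups (x axis), with lines at the group means. E2f2 was lower in each of the 8 knockout libraries than in each of the 4 wild-type libraries, E2f3 and Rbl1 were highest in Bcat_KO, and Rbl2 was lowest there.

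The activator E2f2, which drives replication genes and is known to matter for the exit of maturing red cells from the cell cycle, was lower in every mutant. E2f2 (ENSMUSG00000018983, GRCm38 chromosome 4, 136172394 to 136196057, plus strand) was at 67.6 and 83.2 CPM in the WT libraries, 33.6 and 44.5 with Hoxa9_KO, 30.2 and 26.6 with Bcat_KO and 25.7 and 20.3 with dKO. In the other experiment the WT_Prmt1 pair stood at 87.7 and 93.5 CPM and the Prmt1_KO pair at 39.5 and 36.3. No knockout library reached the level of any wild-type library.
The log2 change was -0.95 ± 0.16 (SE) in Hoxa9_KO (edgeR quasi-likelihood test, adjusted p = 0.00608), -1.41 ± 0.16 in Bcat_KO (0.000513), -1.71 ± 0.17 in dKO (8.25e-05) and -1.26 ± 0.16 in Prmt1_KO (0.000164). The first 3 of these share the WT libraries. Without library S2 of WT, the higher of that pair, the change in Hoxa9_KO was -0.78 and was not called (0.0677). The calls in Bcat_KO, dKO and Prmt1_KO were kept in all 12 alternative analyses run on each. E2f2 in dKO against Hoxa9_KO was -0.76 ± 0.16 and not called (0.0530). The dKO change was higher than the sum of the single changes by 0.65 ± 0.23, which was not called either (0.108). That departure was called with no filter (0.0296) and by DESeq2 (0.0461). Erythroid markers, summed over 11 genes, were at 313 to 1258 CPM in WT, 172 to 272 in Hoxa9_KO, 29.4 to 40.7 in Bcat_KO, 137 to 414 in dKO, 599 to 670 in WT_Prmt1 and 64.5 to 66.8 in Prmt1_KO. All 11 were detected in each group except Trim10, at 0 in Bcat_KO, and their part in the E2f2 values was not tested.

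The other activators, E2f1 and E2f3, fell with E2f2 in Prmt1_KO but were not called lower in Hoxa9_KO, Bcat_KO or dKO. E2f1 (ENSMUSG00000027490, chromosome 2, 154559407 to 154569892, minus strand), which also promotes cell death when unrestrained, was at 63.3 and 56.6 CPM in the WT libraries, 62.5 and 59.7 with Hoxa9_KO, 69.6 and 82.2 with Bcat_KO and 66.9 and 55.6 with dKO. Its values were 85.9 and 76.2 CPM with WT_Prmt1 and 41.9 and 43.4 with Prmt1_KO. The Prmt1_KO libraries were the lowest of the 12 and lay apart from their controls, whereas WT, Hoxa9_KO and dKO overlapped.
E2f1 fell by 0.93 ± 0.12 on the log2 scale in Prmt1_KO (edgeR adjusted p = 0.000170). Its values were 0.03 ± 0.12 in Hoxa9_KO (0.945), 0.34 ± 0.12 in Bcat_KO (0.0751) and 0.03 ± 0.12 in dKO (0.910), none of them called. With library-size scaling E2f1 was called in Bcat_KO (0.39, 0.0431). E2f3 (ENSMUSG00000016477, chromosome 13, 29906575 to 29986063, minus strand), an activator needed for the division of many cell types, was at 13.6 and 16.8 CPM in WT and at 27.8 and 28 in Bcat_KO, above every other library. It was at 16.2 and 14.9 CPM with Hoxa9_KO, 15.3 and 14.6 with dKO, 20.0 and 15.6 with WT_Prmt1 and 11.3 and 12.8 with Prmt1_KO. The dKO libraries thus sat within the WT range although the single Bcat_KO libraries did not.
E2f3 rose by 0.88 ± 0.18 in Bcat_KO (0.00916, and 0.0945 without WT S1) and fell by 0.56 ± 0.18 in Prmt1_KO (0.0340). The call in Prmt1_KO was lost without WT_Prmt1 S10 (-0.36, 0.304), Prmt1_KO S8 (0.215) or Prmt1_KO S9 (0.0875), and with no filter on low counts (0.110).

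The make-up of the activator pool, taken as the share of each gene in the summed RPKM of E2f1, E2f2 and E2f3, moved accordingly. E2f2 held 41.4% ± 4.77 (SD, n = 2) of the pool in WT, 26.4% ± 4.53 in Hoxa9_KO, 16.7% ± 2.60 in Bcat_KO and 17.5% ± 0.692 in dKO. It held 39.1% ± 3.35 in WT_Prmt1 and 33.0% ± 2.08 in Prmt1_KO, where E2f1 was lower as well. The pool itself summed to 37.3 ± 1.16 RPKM in WT, 30.2 ± 0.786 in Hoxa9_KO, 35.0 ± 2.35 in Bcat_KO, 26.9 ± 3.40 in dKO, 47.5 ± 1.93 in WT_Prmt1 and 23.5 ± 0.0540 in Prmt1_KO. These shares are descriptions, since 2 libraries against 2 cannot give an exact two-sided permutation p below 0.333.

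Among the repressors, E2f4 showed no called change in any of the 9 comparisons. E2f4 (ENSMUSG00000014859, chromosome 8, 105297663 to 105305370, plus strand) was at 87.0 to 116 CPM over the 12 libraries. Its largest change between 2 groups was -0.19 ± 0.09, in dKO against Hoxa9_KO (edgeR adjusted p = 0.460). Its departure from the sum of the single changes was -0.30 ± 0.13 (0.185). At an unadjusted p under 0.05 it had 1 of the 9 differences, this departure, and no alternative analysis called any. E2f6 (ENSMUSG00000057469, chromosome 12, 16810963 to 16839742, plus strand), which represses without pocket proteins and recruits the Polycomb complex PRC1.6, was at 58.4 and 55.5 CPM in the WT libraries, 55.4 and 49.2 with Hoxa9_KO, 55.2 and 55.8 with Bcat_KO and 53.4 and 51.4 with dKO. The WT_Prmt1 pair stood at 53.8 and 61.3 CPM and the Prmt1_KO pair at 40.7 and 38.3, the 2 lowest of the 12. E2f6 fell by 0.54 ± 0.10 in Prmt1_KO (0.00166), a call kept in all 12 alternative analyses.

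E2f7 and E2f8, the atypical E2Fs, bind DNA without a Dp partner, repress E2F targets late in S phase and are themselves known E2F targets. E2f7 (ENSMUSG00000020185, chromosome 10, 110745439 to 110787384, plus strand) was at 14.0 and 12.4 CPM in the WT libraries, 15.1 and 16.3 with Hoxa9_KO, 18.7 and 24.1 with Bcat_KO and 18.2 and 16.9 with dKO. The WT_Prmt1 pair stood at 22.5 and 18.2 CPM and the Prmt1_KO pair at 9.86 and 8.30, again the lowest of the 12. E2f7 fell by 1.17 ± 0.19 in Prmt1_KO (edgeR adjusted p = 0.000811), and rose by 0.70 ± 0.19 in Bcat_KO (0.0308).
In Bcat_KO, E2f7 was no longer called on leaving out WT S1 (0.109), WT S2 (0.184) or Bcat_KO S4 (log2 change 0.49, adjusted p 0.203), and when only the WT and Bcat_KO libraries were fitted (0.0622). E2f8 (ENSMUSG00000046179, chromosome 7, 48866429 to 48881596, minus strand) was at 45.1 and 40.3 CPM with WT, 27.6 and 39.9 with Hoxa9_KO, 49.3 and 51.0 with Bcat_KO, 61.5 and 58.2 with WT_Prmt1 and 44.4 and 47.6 with Prmt1_KO. In dKO its 2 libraries stood apart, at 40.5 (S6) and 20.3 CPM (S7), the second being the lowest of the 12 libraries.
E2f8 was called in none of the 9 comparisons by edgeR with TMM scaling, the low-count filter and all 12 libraries, where 1 had an unadjusted p under 0.05. Its change in dKO against WT was -0.49 ± 0.26 (0.245). It was -1.08 (0.00234) without dKO S6 and -0.09 without dKO S7, and with no filter it was called at -0.47 (0.0243). Fitting only the groups compared called E2f8 in Prmt1_KO (-0.39, 0.00930) and in WT_Prmt1 against WT (0.49, 0.0138), the latter also with no filter (0.0340). In GENCODE M21, 610 exonic bases of E2f8 are shared with Gm2788 on the other strand, which was at 0.134 to 4.34 CPM.

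The pocket protein genes did not change together. Rbl2 (ENSMUSG00000031666, chromosome 8, 91070057 to 91123844, plus strand) encodes p130, the pocket protein of resting cells and core of the DREAM repressor complex. It was at 52.4 and 55.1 CPM in the WT libraries, 70.8 and 84.7 with Hoxa9_KO, 37.2 and 44.6 with Bcat_KO and 75.8 and 95.1 with dKO. The WT_Prmt1 pair stood at 51.6 and 57.2 CPM and the Prmt1_KO pair at 86.9 and 88.3. The libraries of Hoxa9_KO, dKO and Prmt1_KO all lay above every wild-type library, and both Bcat_KO libraries lay below them.
Rbl2 rose by 0.67 ± 0.13 in dKO (edgeR adjusted p = 0.00560), by 0.69 ± 0.13 in Prmt1_KO (0.00226) and by 0.53 ± 0.13 in Hoxa9_KO (0.0413). Its value in Bcat_KO was -0.39 ± 0.13 and was not called (0.0674), but it was with no filter (0.0335), by DESeq2 (0.0418) and with a robust prior (0.0411). Leaving out WT S1 (0.250), WT S2 (0.142) or Hoxa9_KO S5 (log2 change 0.40, adjusted p 0.222) ended the call in Hoxa9_KO, as did library-size scaling (0.0524), and the call in dKO was lost without dKO S7 (0.0582).

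Rbl1 (ENSMUSG00000027641, chromosome 2, 157145893 to 157204534, minus strand) encodes p107, the pocket protein of cycling cells and itself a known E2F target. It was at 58.5 and 62.8 CPM in the WT libraries, 68.1 and 55.2 with Hoxa9_KO, 93.0 and 84.8 with Bcat_KO and 50.8 and 44.8 with dKO. The WT_Prmt1 pair stood at 58.5 and 66.2 CPM and the Prmt1_KO pair at 43.4 and 48.5. The Bcat_KO pair was the highest of the 12, and the dKO and Prmt1_KO pairs were below all 4 wild-type libraries.
Rbl1 rose by 0.55 ± 0.12 in Bcat_KO (edgeR adjusted p = 0.0140) and fell by 0.44 ± 0.12 in Prmt1_KO (0.0180). Its change in dKO was -0.34 ± 0.12 and not called (0.0856), though DESeq2 called it (0.0461). Leaving out WT S1 ended the Bcat_KO call (0.113), as did leaving out WT S2 (0.0588) or Bcat_KO S3 (0.0766), and the Prmt1_KO call was lost without WT_Prmt1 S11 (0.186) or Prmt1_KO S8 (0.152).
Rb1 (ENSMUSG00000022105, chromosome 14, 73183673 to 73325822, minus strand), the retinoblastoma tumour suppressor that holds back the activators, was at 45.6 and 44.1 CPM in the WT libraries, 42.4 and 45.5 with Hoxa9_KO, 24.3 and 34.3 with Bcat_KO and 47.9 and 49.3 with dKO. The WT_Prmt1 pair stood at 49.3 and 48.2 CPM and the Prmt1_KO pair at 32.2 and 35.1. Bcat_KO and Prmt1_KO lay below every library of the other 4 groups.
Rb1 fell by 0.61 ± 0.14 in Bcat_KO (0.0176) and by 0.53 ± 0.14 in Prmt1_KO (0.0147). The first call did not survive leaving out WT S1 (0.0816), WT S2 (0.0726) or Bcat_KO S3 (log2 change -0.40, adjusted p 0.0727), and the second without WT_Prmt1 S10 (0.0783), WT_Prmt1 S11 (0.0695) or Prmt1_KO S8 (0.112). Rb1 shares 896 exonic bases with Lpar6 and Rcbtb2 on the other strand, and Rcbtb2 fell with it by 0.52 in Bcat_KO (0.00411) and by 0.57 in Prmt1_KO (0.000572). Rbl2 shares 1585 exonic bases with Aktip and Gm45464; Aktip was at 9.45 to 16.4 CPM and was called in no comparison. The strand setting of the counting was not given in the sources used here, and without strand the reads of such partners cannot be told apart.

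**Figure D2:**
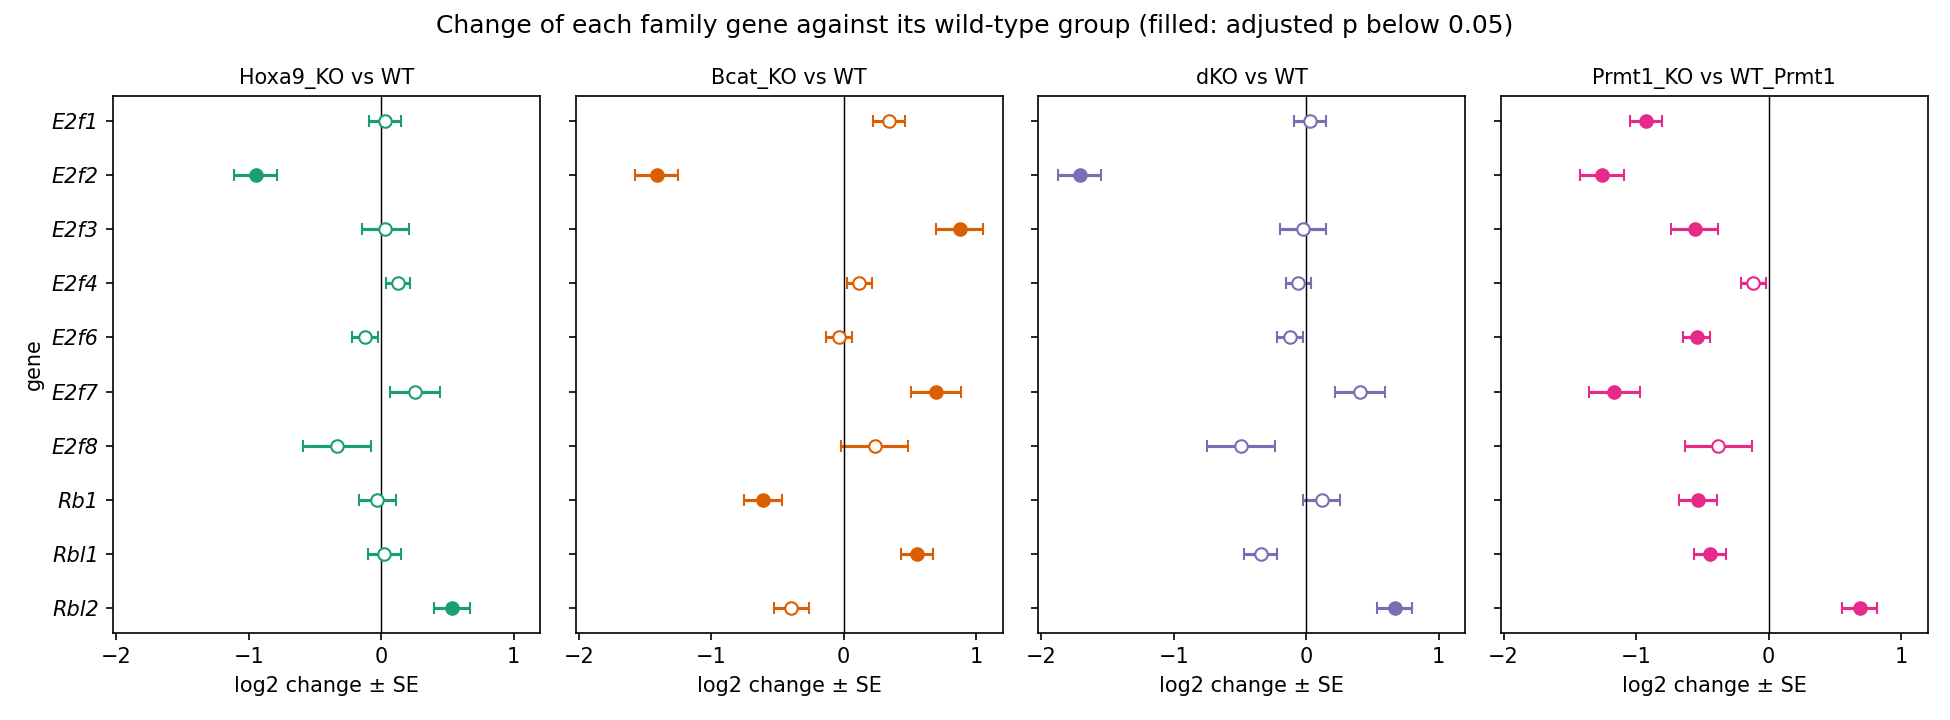
Log2 change (x axis) of each of the 10 genes (y axis) in each knockout against its own wild-type group, with SE bars; filled points have an edgeR adjusted p below 0.05. E2f2 lay left of 0 in all 4 panels, and Rbl2 lay right of 0 in Hoxa9_KO, dKO and Prmt1_KO and left of it in Bcat_KO.

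Rbl1 and Rbl2 set against each other gave a value per library that is free of scaling between libraries. The log2 ratio of their RPKM was 0.49 and 0.52 in WT and 0.52 and 0.55 in WT_Prmt1, so the 4 wild-type libraries lay close together. It was 1.66 and 1.26 in Bcat_KO, which is 2.75 times as much Rbl1 as Rbl2 per length on average. It was 0.28 and -0.28 in Hoxa9_KO, -0.24 and -0.75 in dKO, and -0.67 and -0.53 in Prmt1_KO.
Both dKO and both Prmt1_KO libraries therefore held more Rbl2 than Rbl1 per length, and the wild-type and Bcat_KO libraries the reverse. With the longest transcripts as lengths each ratio was lower by the same constant, and the WT mean became 0.19, the Hoxa9_KO mean -0.32 and the dKO mean -0.81. The summed RPKM of the 3 pocket protein genes varied little, from 24.7 ± 0.594 (SD, n = 2) in WT to 27.9 ± 0.15 in Hoxa9_KO, with the other groups between. Within that sum the share of Rbl2 was 28.8% ± 0.316 in WT, 21.5% ± 1.98 in Bcat_KO, 41.2% ± 4.71 in dKO and 46.7% ± 1.48 in Prmt1_KO.

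**Figure D3:**
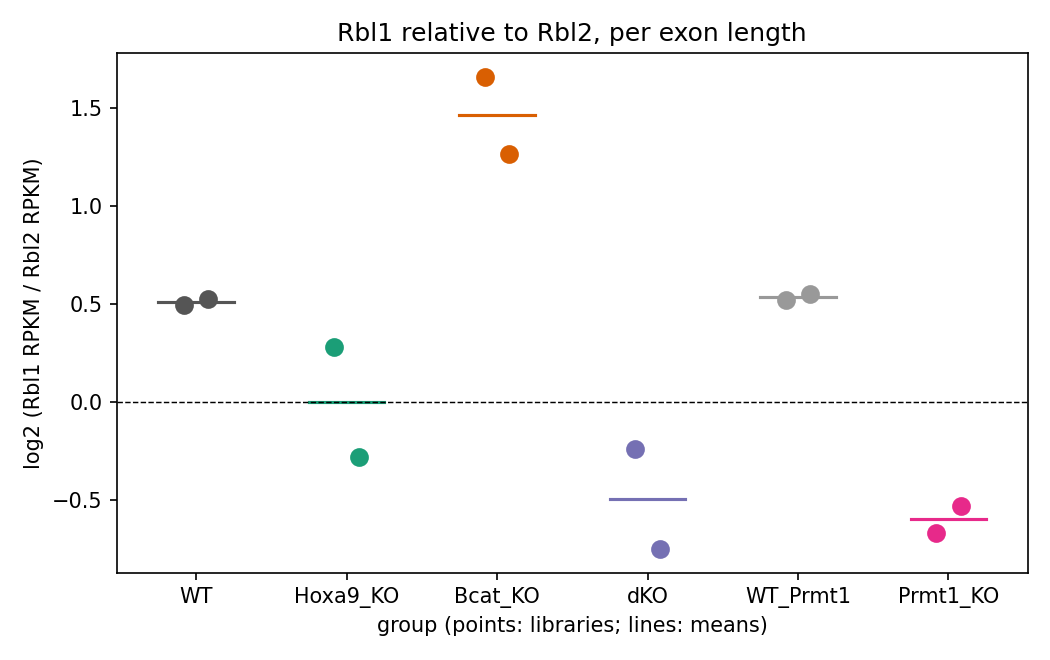
Log2 ratio of Rbl1 to Rbl2 RPKM (y axis) in each library (points) by group (x axis), with lines at the means and a dashed line at equal levels. The 4 wild-type libraries lie between 0.49 and 0.55, both Bcat_KO libraries lie above 1, and the dKO and Prmt1_KO libraries lie below 0.

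Counted over the family, Prmt1_KO had the most called members. There 8 of 10 were called, 1 higher and 7 lower, where 31.8% of the 17063 genes tested were called (16.1% higher and 15.6% lower). In Bcat_KO 5 of 10 were called, 3 higher and 2 lower, against 15.7% of all genes (6.69% and 9.01%). In Hoxa9_KO 2 of 10 were called, 1 in each direction, against 5.33% of all genes (3.62% and 1.71%).
In dKO 2 of 10 were called, Rbl2 higher and E2f2 lower, against 16.5% of all genes (8.6% and 7.86%), so the share of the family was close to the background there. The libraries of the 2 groups did not overlap for 9 members in Prmt1_KO (68.2% of all genes), 8 in Bcat_KO (59.3%), 6 in dKO (58.7%) and 6 in Hoxa9_KO (50.9%). The median log2 change of the 10 genes was -0.54 in Prmt1_KO, 0.18 in Bcat_KO, 0.03 in Hoxa9_KO and -0.04 in dKO, and that of all genes lay between -0.04 and 0.01.

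The design asks whether losing β-catenin and Hoxa9 together differs from the sum of the single losses, and for 3 family members the fit called such a departure. The dKO change was lower than the sum of the single changes by 0.93 ± 0.25 for E2f3 (edgeR adjusted p = 0.0493) and by 0.92 ± 0.17 for Rbl1 (0.0144), and was higher by 0.76 ± 0.20 for Rb1 (0.0485). For all 3 the Bcat_KO libraries stood away from WT and the Hoxa9_KO libraries did not, while the dKO libraries were near WT or, for Rbl1, below it. WT was low in Ddx3y and the mutant groups high, and the Bcat_KO pair also stood apart in depth and in the receptor counts given above. These differences and a departure cannot be told apart here. Departures were called for 7.03% of all genes tested, 3.99% higher and 3.04% lower.
The Rbl1 departure was lost in 1 of 16 alternative analyses, without WT S1 (-0.83, 0.0696). The E2f3 departure was lost in 12 of 16, among them each of the 8 that left out a library (highest 0.196, without WT S1), and the Rb1 departure in 10 of 16 (highest 0.130, also without WT S1). For Rb1, leaving out Bcat_KO S3 gave 0.55 (0.0801).

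The dKO libraries were also set directly against those of each single knockout. Against Bcat_KO 4 of 10 members were called, 2 in each direction, where 27.4% of all genes were called (15.9% higher and 11.5% lower). Rbl2 rose by 1.06 ± 0.13 (edgeR adjusted p = 0.000345) and Rb1 by 0.73 ± 0.14 (0.00392), while Rbl1 fell by 0.90 ± 0.12 (0.000578) and E2f3 by 0.90 ± 0.18 (0.00392). All 10 members had non-overlapping libraries in this comparison, against 62.6% of all genes.
The Rb1 call was lost when only the groups compared were fitted (0.0521), and the other 3 calls were kept in all 12 alternatives. E2f8 in this comparison was -0.72 ± 0.26 and not called (0.0580), and it was -1.31 (0.000663) without dKO S6. It was called with all libraries under library-size scaling (0.0266), with no filter (6.63e-05), by DESeq2 (0.00719) and by limma-voom (0.0324), while without dKO S7 it was -0.31. Against Hoxa9_KO none of the 10 members was called, where 1.24% of all genes were called (0.24% higher and 1% lower), and 5 had libraries that did not overlap (41.2% of all genes). At an unadjusted p under 0.05 there were 2, E2f2 and Rbl1. E2f2 was called there by DESeq2 (-0.74, adjusted p 0.00062), with library-size scaling (0.0250), with no filter (2.13e-05), with a robust prior (0.0144), and without Hoxa9_KO S4 (0.0277) or dKO S6 (0.0226), while limma-voom with quality weights called 0 members.

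The dKO and Prmt1_KO changes differed for the genes E2f1 and E2f7 when the difference itself was tested, each within its own experiment. E2f1 changed by 0.03 in dKO and -0.93 in Prmt1_KO, a difference of 0.96 ± 0.17 (edgeR adjusted p = 0.00395). E2f7 changed by 0.41 ± 0.19 in dKO, which was not called (0.181), and by -1.17 in Prmt1_KO, a difference of 1.57 ± 0.27 (0.00325). Such differences were called for 14.4% of all genes (7.38% higher and 7.04% lower), and those of E2f1 and E2f7 were kept in all 16 alternatives.
For E2f2 (-0.45 ± 0.23, 0.227), Rbl1 (0.10 ± 0.17, 0.774) and Rbl2 (-0.02 ± 0.19, 0.971) the difference was not called. For Rb1 it was 0.65 ± 0.20 and missed the threshold (0.0546), and 7 of the 16 alternatives called it, with adjusted p from 0.0170 to 0.0383. The E2f1 and E2f7 levels had a Pearson r of 0.93 over the 12 libraries, which share group differences and depth, and E2f1 was among the 3 genes most like E2f7 of 9807 expressed protein-coding genes. Both genes had higher levels in the WT_Prmt1 than in the WT libraries, though neither was called: E2f1 in WT_Prmt1 against WT was 0.43 ± 0.12 (0.0545) and E2f7 0.62 ± 0.19 (0.0800). No member was called by edgeR in that comparison of controls, where 6.66% of all genes were (3.45% higher and 3.21% lower), and 5 had libraries that did not overlap (53% of all genes). E2f1 and E2f7 were the 2 with an unadjusted p under 0.05 there, and both were called by DESeq2 (0.0119 and 0.0300) and by limma-voom (0.0167 and 0.0369).

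Other genes whose pattern over the 12 libraries was most like that of a member, by Pearson r of log2 CPM, were chosen by rule as the top 3 for each. For Rbl1 they were the maintenance methyltransferase Dnmt1 (0.96), Rbm28 (0.96) and Sinhcaf (0.96). For Rbl2 they were Ccndbp1 (0.97), Gda (0.96) and Ccdc47 (0.96). For E2f2 they were Stambpl1 (0.98), Mrpl49 (0.98) and Snx2 (0.98), and for E2f3 Gpatch4 (0.97), Dot1l (0.93) and Tmem65 (0.92).
Between members, E2f3 and Rbl1 had an r of 0.88 and Rbl1 and Rbl2 one of -0.88, whereas that of E2f2 with Rbl1 was 0.07. These are descriptions over libraries that share group differences, and carry no test.

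Of the partners that act with the family, more were lower than higher in dKO and Prmt1_KO. Of 11 partners and DREAM regulators tested, 4 fell and none rose in dKO, 5 fell and none rose in Prmt1_KO, 1 rose in Bcat_KO and none was called in Hoxa9_KO, where 2 were lower at an unadjusted p under 0.05. Over all genes the shares called were 16.5% in dKO, 31.8% in Prmt1_KO, 15.7% in Bcat_KO and 5.33% in Hoxa9_KO. Tfdp1, the main Dp partner of the E2Fs, was at 248 and 270 CPM in WT and at 316 and 312 in Bcat_KO, 198 and 205 in dKO, and 222 and 214 in Prmt1_KO, against 289 and 319 in WT_Prmt1. It rose by 0.28 ± 0.08 in Bcat_KO (edgeR adjusted p = 0.0358) and fell by 0.36 ± 0.08 in dKO (0.00916) and by 0.48 ± 0.08 in Prmt1_KO (0.000768).
Foxm1, which takes over from B-Myb in driving mitotic genes, fell by 1.30 ± 0.13 in dKO (8.27e-05) and by 1.20 ± 0.13 in Prmt1_KO (4.03e-05). Mybl2, which encodes B-Myb, fell by 0.65 ± 0.13 in dKO (0.00484) and by 0.86 ± 0.13 in Prmt1_KO (0.000372). The histone-binding MuvB subunit Rbbp4 fell by 0.44 ± 0.08 in dKO (0.00344) and by 0.61 ± 0.08 in Prmt1_KO (0.000173).

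Upstream of the pocket proteins, cyclins, kinases and kinase inhibitors were called in both directions. Of 15 tested, 1 rose and 1 fell in Hoxa9_KO, 2 rose and 3 fell in Bcat_KO, 4 rose and 5 fell in dKO, and 2 rose and 7 fell in Prmt1_KO, where the shares of all genes called were 5.33%, 15.7%, 16.5% and 31.8%. Ccnd3, a D-type cyclin that opens phosphorylation of pocket proteins, was at 321 and 378 CPM in the WT libraries. It was at 195 and 210 CPM with Hoxa9_KO, 180 and 149 with Bcat_KO and 180 and 145 with dKO, the 3 mutant groups all lying below WT. The Prmt1_KO pair was also below its control, at 203 and 226 CPM against 318 and 300 with WT_Prmt1. It fell by 0.79 ± 0.13 in Hoxa9_KO (edgeR adjusted p = 0.00461), 1.09 ± 0.13 in Bcat_KO (0.000567) and 1.10 ± 0.13 in dKO (0.000222).
Its partner kinase Cdk6 rose by 0.97 ± 0.15 in Bcat_KO (0.00208), from 289 and 256 CPM to 557 and 508, and was at 280 and 202 in dKO. The departure of Cdk6 from the sum of the single changes was -1.48 ± 0.20 (0.00371), in the direction seen for E2f3 and Rbl1. The inhibitor Cdkn1c (p57), known for holding stem cells out of the cycle, rose by 1.09 ± 0.22 in Hoxa9_KO (0.0134) and by 1.30 ± 0.22 in dKO (0.00198).
Cdkn1a (p21) rose by 0.87 ± 0.13 in dKO (0.000866). In Prmt1_KO the kinase Cdk4 fell by 0.56 ± 0.07 (0.000173) and cyclin Ccnd1 by 0.98 ± 0.17 (0.00128), and the inhibitor Cdkn2d rose by 0.61 ± 0.12 (0.00214). For Ccnd1 the dKO change exceeded the Prmt1_KO change by 1.71 ± 0.24 (0.00121).

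Among the targets of the family, G1/S genes bound by E2F fell widely in dKO and Prmt1_KO. Of 44 such genes tested, 36 fell and none rose in dKO (median log2 change -0.55, against 0.01 for all genes), and 39 fell and none rose in Prmt1_KO (median -0.84, against -0.03). In Hoxa9_KO 5 fell and none rose (median -0.25), and in Bcat_KO 3 fell and 1 rose (median -0.08). The called counts stand against 16.5% of all genes called in dKO, 31.8% in Prmt1_KO, 5.33% in Hoxa9_KO and 15.7% in Bcat_KO. At an unadjusted p under 0.05, 23 were lower and 0 higher in Hoxa9_KO, and 8 lower and 3 higher in Bcat_KO.
Thymidylate synthase Tyms dropped from 130 and 142 CPM with WT_Prmt1 to 26.6 and 26.4 with Prmt1_KO and fell by 2.35 ± 0.12 (edgeR adjusted p = 5.82e-07). The dKO change of Tyms was smaller by 1.57 ± 0.17 (0.000224), and 12 of the 44 genes had a dKO change called higher than the Prmt1_KO change and 1 had one called lower. The hemimethylated-DNA reader Uhrf1 fell by 1.28 ± 0.12 in dKO (8.27e-05) and by 0.66 ± 0.12 in Hoxa9_KO (0.00973). The G1/S genes that fell in Bcat_KO were Pcna (-0.61 ± 0.07, edgeR adjusted p = 0.000357), Rrm2 (-0.74 ± 0.18, 0.0219) and Hells (-0.32 ± 0.09, 0.0295). Dnmt1 was the G1/S gene that rose in Bcat_KO, from 289 and 285 CPM to 485 in both libraries (0.76 ± 0.08, 0.000234), and its dKO level was 247 and 227. Its departure from the sum of the single changes was -1.19 ± 0.11 (0.000258). Of the 36 genes of this list with a RefSeq window, 17 (47.2%) held 1 of the 4 E2F words, against 2.26% of all windows.

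Mitotic genes under DREAM, B-Myb and FoxM1 also fell in dKO and Prmt1_KO. Of 30 tested, 29 fell and none rose in dKO (median -1.29), while 24 fell and none rose in Prmt1_KO (median -1.16). None was called in Hoxa9_KO (median -0.33, 9 lower at an unadjusted p under 0.05). In Bcat_KO 2 rose (median -0.04), and 4 were higher and 3 lower at an unadjusted p under 0.05. The shares called over all genes were 16.5% in dKO, 31.8% in Prmt1_KO, 5.33% in Hoxa9_KO and 15.7% in Bcat_KO. The departure from the sum of the single changes was called lower for 15 of these 30 genes (median -0.96, against 0.04 for all genes). It was called lower for 4 of the 44 G1/S genes (median -0.27) and for 3.04% of all genes. Topoisomerase Top2a had a departure of -1.06 ± 0.19 (edgeR adjusted p = 0.0121) and the proliferation marker Mki67 one of -1.98 ± 0.36 (0.0123).
Of the 30 genes only Mki67 and Cenpe were called in Bcat_KO. Mki67 rose by 1.27 ± 0.25 (edgeR adjusted p = 0.00855), from 176 and 144 CPM to 388 and 387, and Cenpe by 0.96 ± 0.29 (0.0460). The 6-letter CHR word TTTGAA, by which DREAM and B-Myb complexes are known to reach mitotic promoters, was in the windows of 20 of the 26 genes of this list with one (76.9%), against 17.9% of all 32851 windows. In the family it was in 4 windows, of E2f2, E2f3, E2f8 and Rbl2.

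**Figure D4:**
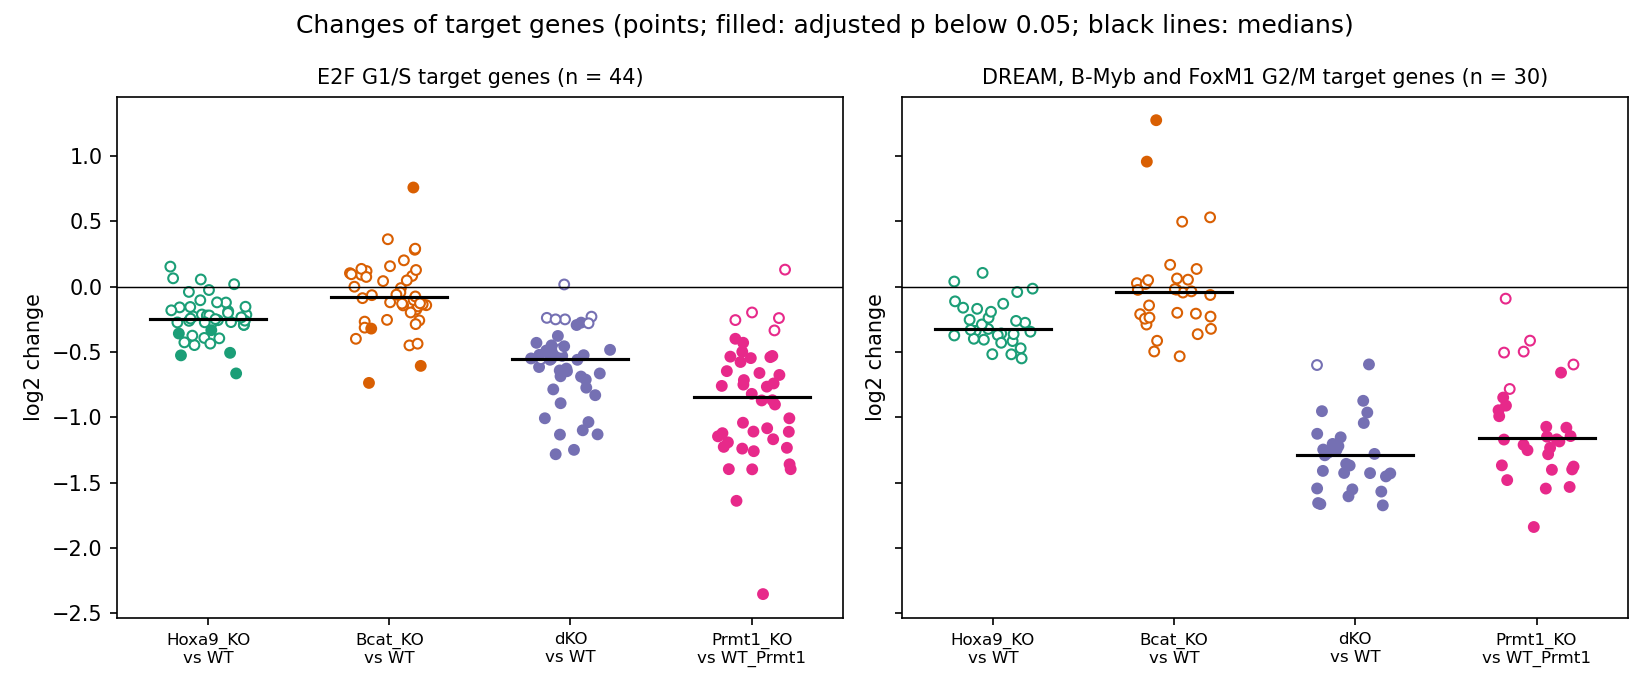
Log2 change (y axis) of each G1/S target gene (left, n = 44) and each G2/M target gene (right, n = 30) in the 4 knockouts against their wild-type groups (x axis); filled points have an edgeR adjusted p below 0.05 and black lines are medians, drawn with random sideways spread. In dKO the medians are -0.55 on the left and -1.29 on the right, and in Bcat_KO they are -0.08 and -0.04.

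Around E2f6, the partners in PRC1.6 were called in both directions, while the germline genes this complex is known to silence were called only lower in the 4 comparisons of a knockout with its wild type. Of 13 partners tested, 3 rose and 4 fell in Prmt1_KO, where E2f6 itself fell, 2 fell in dKO, 1 rose in Bcat_KO and none was called in Hoxa9_KO, where 2 were lower at an unadjusted p under 0.05. The counts in dKO and Bcat_KO are near or below the shares called over all genes (16.5% and 15.7%), and in Prmt1_KO that share was 31.8%. The heterochromatin proteins Cbx1 and Cbx3 fell in Prmt1_KO (-0.75 ± 0.09, edgeR adjusted p = 8.85e-05, and -0.47 ± 0.08, 0.00130) and the ubiquitin ligase Rnf2 rose (0.51 ± 0.10, 0.00221). Of 12 germline genes 5 passed the filter, and none of them rose in any of the 4 knockouts, also at an unadjusted p under 0.05.
In Prmt1_KO, the group with lower E2f6, 3 of these 5 fell, Tdrkh, Zcwpw1 and Stag3. Tdrkh, a factor of the piRNA pathway, dropped from 23.7 and 21.4 CPM with WT_Prmt1 to 3.55 and 3.57 and fell by 2.66 ± 0.19 (4.06e-06). In the other experiment Tdrkh was at 16.5 to 22.7 CPM and was not called in any knockout.
The germ cell helicase Ddx4 fell in the other experiment, where E2f6 was not called. Ddx4 was at 20.2 and 18.2 CPM in the WT libraries, 1.31 and 0.416 with Hoxa9_KO, 2.92 and 2.50 with Bcat_KO and 1.24 and 0.645 with dKO, so the 3 mutant groups all lay far below WT. The log2 change of Ddx4 was -4.51 ± 0.45 with Hoxa9_KO (edgeR adjusted p = 0.000225), -2.83 ± 0.40 with Bcat_KO (0.00150) and -4.35 ± 0.44 with dKO (0.000103). The WT_Prmt1 pair of Ddx4 stood at 10.3 and 9.71 CPM and the Prmt1_KO pair at 17.6 and 14.5, higher and not called. Dazl, an RNA-binding protein of germ cells, was called lower in Bcat_KO (edgeR adjusted p = 0.0349), from 0.941 and 0.555 CPM in WT to 0.0318 and 0, levels at which few reads stand behind each value.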

How the data were processed

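Gene counts were deposited by the authors as raw whole-number counts per gene. Per the submitters' processing notes, Trim Galore 0.6.6, STAR 2.7.6a with GRCm38/mm10, and featureCounts were used. The strand setting, the annotation release and the aligner settings were not given in the sources used here. Per the labels, the kit was a directional one. Even counts made up 67.1 to 75.9% of nonzero values, so both mates of a pair appear to have been counted.

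Of 55471 genes, 55230 matched GENCODE M21 by identifier. The 241 unmatched genes held 0.0044% of the counts. Columns carry S tags and no replicate number, and columns named control were read as WT.

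Genes were filtered with filterByExpr (minimum count 10), which left 17063, and TMM factors were computed. All 12 libraries entered 1 quasi-likelihood fit with 6 group means in edgeR 4.0.16 under R 4.3.3, with 6 residual degrees of freedom. A call is a Benjamini-Hochberg adjusted p under 0.05 over all genes tested. SE is the size of the log2 change over the root of its F value. The 9 comparisons were rerun with library-size scaling, RLE size factors, no filter, a mean of at least 5 CPM, only the groups compared, DESeq2 1.42.0, limma 3.58.1 voom with quality weights, each library left out in turn and, chosen after seeing the data, a robust prior. Promoters are RefSeq's. Figures and tables were made with data.table (version 1.17.8), Python 3.11.15, pandas 2.3.3 and matplotlib 3.10.9.

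The members and the gene lists were chosen with earlier results of these data known. Besides the 10 members, the text names at most 4 called genes with the smallest p per list and comparison, the 3 genes most correlated with a member (mean of at least 5 CPM, prior count 2), genes that share exonic bases with a member, and genes that check the labels.

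Counts were simulated for the 17063 filtered genes, with known changes put into a subset of them, and 16142 passed the filter and were tested. Changed genes with a mean of at least 5 CPM were recovered in 50.8% of cases at a log2 change of 1 for dKO against WT. At a log2 change of 2 the share was 96.6%, with 2 calls among unchanged genes. For Prmt1_KO these were 60.7%, 100% and 5.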

Additional observations from a re-analysis of the deposited data

Results flagged for a closer look

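Effects of the same kind differed between groups, by a test of the difference itself, for 5 family members. The dKO change departed from the sum of the Hoxa9_KO and Bcat_KO changes for E2f3 (-0.93 ± 0.25 on the log2 scale, edgeR adjusted p = 0.0493), Rbl1 (-0.92 ± 0.17, 0.0144) and Rb1 (0.76 ± 0.20, 0.0485). Of 16 alternative analyses, 4 kept the E2f3 call, 6 the Rb1 call and 15 the Rbl1 call, and none of the 8 that left out a library kept that of E2f3. E2f3 and Rbl1 were high and Rb1 low in both Bcat_KO libraries, and neither dKO library shared this. WT differed from the mutant groups in Ddx3y, so the sex of the cells cannot be told apart from these departures.

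The change in dKO differed from the change in Prmt1_KO for E2f1 (0.96 ± 0.17, edgeR adjusted p = 0.00395) and E2f7 (1.57 ± 0.27, 0.00325). Both genes were at their lowest of the 12 libraries in the 2 Prmt1_KO libraries. E2f1 was higher in both WT_Prmt1 libraries than in both WT libraries, as was E2f7, so the controls of the experiments also stood apart.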

How the results depend on the processing

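Of 116 recomputed counts of called members and 1160 recomputed single changes, none reversed a called direction, and 51 single changes lost a call and 44 gained one. Only the larger shifts in the counts of members are given next, so a count that is not listed may also have changed. With library-size scaling the number of members called was 1 in Hoxa9_KO against WT (2 as reported), 1 in dKO against Hoxa9_KO (0) and 4 for the difference between the dKO and Prmt1_KO changes (2). Without a filter it was 1 in dKO against Hoxa9_KO and 2 in WT_Prmt1 against WT (0), and with a mean of at least 5 CPM it was 4 for the difference of changes and 1 in WT_Prmt1 against WT. Fitting only the groups compared gave 3 in Bcat_KO against WT (5), 1 for the departure from additivity (3) and 3 in WT_Prmt1 against WT. DESeq2 gave 1 in dKO against Hoxa9_KO and 2 in WT_Prmt1 against WT, and limma-voom gave 1 for the departure and 2 in WT_Prmt1 against WT. The robust prior, chosen after seeing the data, gave 1 in dKO against Hoxa9_KO and 1 in WT_Prmt1 against WT. The causes were not tested.

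Leaving out 1 library at a time gave 0 to 2 called members in Hoxa9_KO, 1 to 4 in Bcat_KO, 1 to 3 in dKO and 5 to 7 in Prmt1_KO against their wild types (8 as reported for the last). It gave 0 to 1 in dKO against Hoxa9_KO, 4 to 6 in dKO against Bcat_KO (4), 0 to 2 for the departure from additivity, 2 each time for the difference of changes and 0 each time in WT_Prmt1 against WT. Fewer samples were fitted each time, and a group left with 1 library was assumed to vary like the others. No paired analysis was possible because the table's columns carry S tags and no replicate number from the labels. Depth was 17569709 counts or more in every library and all 10 members passed the filter.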
